A study of Mus musculus with 6 samples.

Results

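The 9 genes described here code for members of the epidermal growth factor (EGF) receptor family and the growth factors that bind it, *Areg*, *Ereg*, *Hbegf*, *Tgfa*, *Btc* and *Nrg1* as ligands and *Egfr*, *Erbb2* and *Erbb3* as receptors. They were chosen by gene symbol from the 23183 symbols in the count tables, and all 9 symbols were present. The RNA came from 6 tumours grown from the mouse fibrosarcoma line UV2237M, a connective tissue cancer labelled wild type. The untreated group is 3 tumours left without treatment. The treated group is 3 tumours dosed with gold nanoclusters (GNC), small particles of gold that warm up under light, on day 1 and day 7 and irradiated with near-infrared light. There was no group with GNC alone or light alone, so the effects of these 2 parts of the treatment cannot be told apart. The labels name no host strain, age or time of harvest, and they do not say that each tumour came from its own animal. The p-values therefore weigh the group difference against the spread between these samples, which may not be that between animals. In whole tumours, fewer cells of a type and less RNA per cell cannot be told apart.

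EGF family ligands are made as membrane-bound precursors, and a protease (a sheddase) cuts off the part that reaches neighbouring cells. Amphiregulin (*Areg*) and TGF-alpha bind the EGF receptor, heparin-binding EGF-like growth factor (*Hbegf*), betacellulin (*Btc*) and epiregulin (*Ereg*) can also use ErbB4, and neuregulin 1 (*Nrg1*) binds ErbB3 and ErbB4. The bound receptors pair with each other, often with ErbB2, which has no ligand of its own, and pass the signal on through RAS, the kinase ERK and PI3 kinase. In skin and other covering tissues the family is known for wound closure, and in many tumours for growth.

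The library totals were 4680295 to 8019294 counts, and levels are given as CPM, a gene's count scaled to the TMM-adjusted size of its library. Untreated 2 stood apart from the other 5 libraries, with a mean distance to them of 1.22 on the log2 CPM scale, against 0.61 to 0.73 for the others. Relative to the mean of untreated 1 and 3, the median tested gene in the lowest of 5 equal bins of transcript GC content was higher in untreated 2 by 0.76 log2 units, and in the highest bin the difference was -0.75. The 10 fibroblast and fibrosarcoma markers were found in each library, with summed levels of 27200 to 39936 CPM in untreated and 28438 to 36207 CPM in treated tumours, but *Col1a1*, a collagen gene, was at 59.4 CPM in untreated 2 and at 1975 to 4255 CPM in the others. Keratinocyte markers, which belong to the skin, differed widely, with summed levels of 1420, 747.6 and 11.7 CPM in untreated 1, 2 and 3 against 7.62 to 76.2 CPM in treated tumours.

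The question was how the treated tumours differed from the untreated ones. No member passed edgeR's quasi-likelihood test at an adjusted p under 0.05. The same held for all 12517 genes tested, of which 0 (0%) passed. Before adjustment 1023 genes had a p under 0.05, limma-voom called 0 genes, and DESeq2 called 57. Of the 9 members, 6 passed the filter on low counts and were tested, and *Tgfa*, *Btc* and *Erbb3* did not and are described by their counts. Among the 6, *Areg*, *Ereg*, *Hbegf* and *Erbb2* had higher and *Egfr* and *Nrg1* lower estimates in treated tumours, against 49.9% higher and 50.1% lower of all tested genes. The groups did not overlap in *Areg* and *Hbegf*, which were higher in treated tumours, and in *Egfr*, which was lower. Over all tested genes the 3 treated values were all above the untreated ones in 10.6% and all below them in 10.2%.

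**Figure D1:**
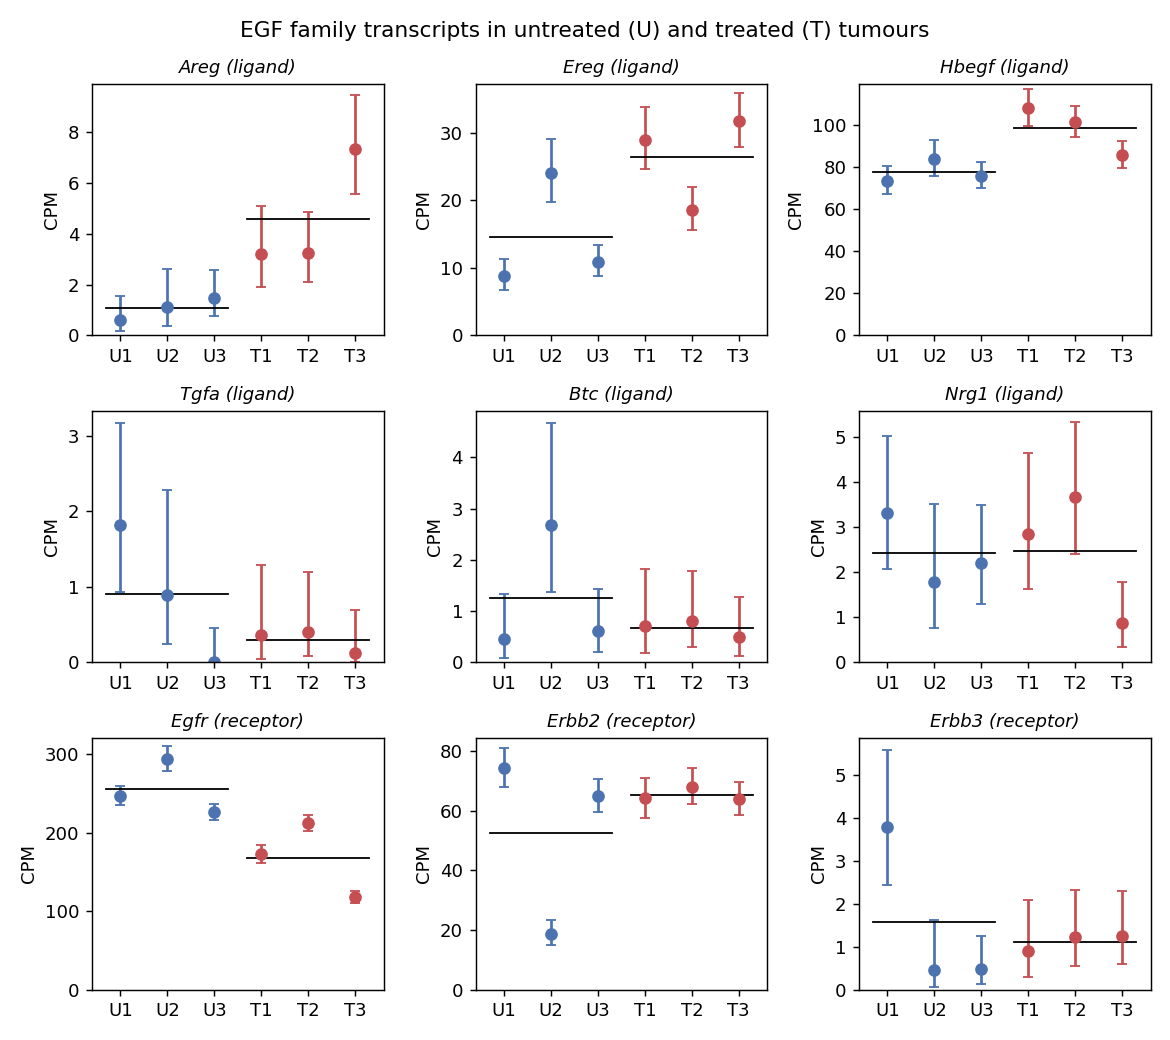
CPM of the 9 EGF family genes in untreated (U1 to U3, blue) and treated (T1 to T3, red) tumours, each panel with its own axis from 0. Points are single libraries, bars are 95% Poisson intervals for counting error only, and black lines are group means. *Areg* lies at 0.61 to 1.47 CPM in untreated and 3.22 to 7.34 CPM in treated tumours, and *Egfr* at 226.3 to 294.3 and 118.4 to 212.2 CPM.

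*Areg* codes for amphiregulin, a ligand of the EGF receptor that injured tissue and some immune cells make. It had 0.61, 1.12 and 1.47 CPM in untreated 1, 2 and 3 against 3.22, 3.26 and 7.34 CPM in treated 1, 2 and 3. Each treated tumour was above each untreated one, and treated 3 was the highest by a wide margin. These levels rest on 4, 5 and 12 counts in untreated and 18, 24 and 59 in treated libraries. The 95% Poisson interval, which covers counting error only, reached from 0.76 to 2.57 CPM in untreated 3 and from 1.91 to 5.09 CPM in treated 1. The intervals of these neighbouring values overlapped, which is not a test of their difference. The log2 fold change was 2.09 ± 0.54 (SE), a 4.26-fold difference. Its unadjusted p was 0.00586 by edgeR, and 3.32% of all tested genes were higher at an unadjusted p under 0.05. The adjusted p was 0.592. *Areg* was the only tested member at an unadjusted p under 0.05, ranked 75 of 12517 genes. Leaving out each library in turn gave log2 fold changes of 1.58 to 2.45, the lowest without treated 3. DESeq2 gave no adjusted p for *Areg*, whose counts are low.

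The start of *Areg* is shown because this ligand had the smallest p of the members. The 250 bases before its annotated start are given 5′ to 3′ from RefSeq (GRCm38.p6, chr5:91139349-91139598, plus strand), with capitals for a cAMP response element and a TATA box.

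Areg: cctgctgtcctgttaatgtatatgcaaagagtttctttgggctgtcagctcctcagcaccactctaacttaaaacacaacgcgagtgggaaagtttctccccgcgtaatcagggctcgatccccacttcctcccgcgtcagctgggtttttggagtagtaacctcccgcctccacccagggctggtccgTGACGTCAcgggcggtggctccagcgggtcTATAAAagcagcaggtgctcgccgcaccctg

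The cAMP response element, TGACGTCA, which reads the same on both strands, begins 61 bases before the start, and 1.55% of 32851 RefSeq promoter windows of this length hold these letters. TATAAA, searched on the gene's strand, begins 31 bases before the start and was found in 7.59% of the windows. An AP-1 site, TGANTCA on either strand, was found in 6.75% of all windows, and the core of a heat shock element, GAANNTTC, in 6.69%. Neither set of letters is in this window of *Areg*, and none of the 4 motifs contains another. A match describes the sequence and does not show that a factor was bound.

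*Ereg* codes for epiregulin and is the neighbour of *Areg* on chromosome 5. It had 8.77, 24.1 and 10.9 CPM in untreated 1, 2 and 3 against 29.0, 18.6 and 31.7 CPM in treated 1, 2 and 3. Untreated 2 was above treated 2, and the other 2 untreated tumours were below each treated one. The log2 fold change was 0.87 ± 0.42 (SE), with an adjusted p of 0.592 by edgeR. Without untreated 2, the library that stood apart, it was 1.41 ± 0.26, with an adjusted p of 0.227 by edgeR. DESeq2 on the same 5 libraries called *Ereg* higher, with an adjusted p of 0.00178, in a comparison where it called 1.01% of the genes higher and 1.39% lower. With each library left out in turn the log2 fold change by edgeR was 0.59 to 1.41, the lowest being without untreated 1. Over all alternatives the adjusted p of *Ereg* ranged from 0.00178 to 0.966. With all 6 libraries DESeq2, which then called 0.156% higher and 0.338% lower, gave an adjusted p of 0.523. The longest transcript of *Ereg* has a GC content of 39.2%, within the lowest bin. On the log2 scale *Ereg* was higher in untreated 2 by 1.26 than in the mean of untreated 1 and 3, where the median gene of that bin was higher by 0.76. The part of GC content in this value was not tested.

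*Areg* and *Ereg* belong to a group of 4 EGF family genes on chromosome 5 that spans 375.5 kb from *Epgn* to *Btc* (mm10). *Ereg* lies at 91074622 to 91093646 and *Areg* 46.0 kb further on, at 91139599 to 91148432, both on the plus strand. *Epgn*, the gene for epigen (91027464 to 91035215), had 0.756, 2.23 and 0 CPM in untreated and 0.179, 0 and 0.373 CPM in treated tumours. *Btc* lies at 91357261 to 91402994 on the minus strand. It had 0.454, 2.68 and 0.613 CPM in untreated 1, 2 and 3 against 0.715, 0.816 and 0.497 CPM in treated tumours, with 12 counts in untreated 2 and 3 to 6 elsewhere. Untreated 2 was thus the highest library for both outer genes of the group, and the other values of *Btc* lay close together. Within 200 kb upstream of *Epgn* lie 3 protein-coding genes. *Mthfd2l*, a mitochondrial folate enzyme, showed a log2 fold change of -0.18 ± 0.32 (SE), and the neutrophil chemokines *Cxcl1* and *Cxcl2* showed 1.81 ± 0.60 and 2.56 ± 1.23. *Cxcl1* had 1.66, 7.36 and 11.5 CPM in untreated and 27.0, 17.4 and 28.2 CPM in treated tumours. *Cxcl2* had 0.303, 0.446 and 16.4 CPM in untreated and 46.8, 12.2 and 47.5 CPM in treated tumours, so that untreated 3 was above treated 2.

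*Hbegf* codes for heparin-binding EGF-like growth factor, which is known to be induced in many cells by stress and by ERK signalling. It had 73.7, 83.9 and 76.1 CPM in untreated 1, 2 and 3 against 108.3, 101.5 and 86.0 CPM in treated 1, 2 and 3. All treated values were above the untreated ones, but treated 3 and untreated 2 were close, with 95% Poisson intervals of 79.7 to 92.7 and 75.6 to 92.8 CPM. Each value rests on 376 to 746 counts. The group means were 98.6 ± 11.4 against 77.9 ± 5.36 CPM (SD, n = 3). The log2 fold change was 0.34 ± 0.19 (SE), a 1.27-fold difference, with an adjusted p of 0.607 by edgeR. It was between 0.26 and 0.43 with each library left out in turn.

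*Nrg1* codes for neuregulin 1, the ligand of ErbB3 and ErbB4, and lies on chromosome 8 (31814551 to 32884029). It had 3.33, 1.79 and 2.21 CPM in untreated and 2.86, 3.67 and 0.870 CPM in treated tumours. The lowest and the highest of the 6 values were both in treated tumours, in 7 and 27 counts. The log2 fold change was -0.01 ± 0.57 (SE), with an adjusted p of 0.996 by edgeR, and its sign turned to 0.27 without untreated 1 and to 0.41 without treated 3.

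*Tgfa* codes for transforming growth factor alpha (chromosome 6, 86195223 to 86275719), a ligand of the EGF receptor that keratinocytes are known to make. Its counts were 12, 4 and 0 in untreated 1, 2 and 3 against 2, 3 and 1 in treated tumours. That is 1.82, 0.893 and 0 CPM against 0.358, 0.408 and 0.124 CPM. A count of 0 in untreated 3 allows a level of up to 0.368 CPM, taking 3 counts as the limit. *Tgfa* was highest in untreated 1 and next in untreated 2, the 2 libraries with the highest keratinocyte markers. *Krt5* was at 238.2 and 77.2 CPM in untreated 1 and 2, and *Krt14*, in the other order, at 232.8 and 344.1 CPM. Both markers were at 0 in untreated 3 and treated 2. Treated 3, with *Krt5* at 18.9 and *Krt14* at 24.2 CPM, had less *Tgfa* than treated 2. The part of keratinocytes in the *Tgfa* counts was not tested.

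**Figure D2:**
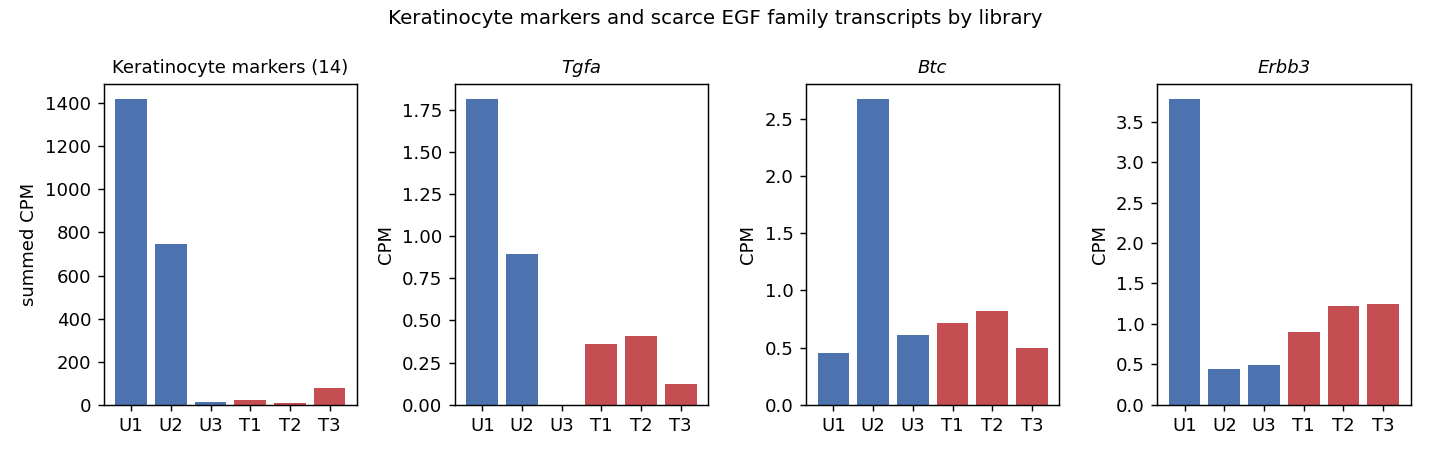
Summed CPM of the 14 keratinocyte markers in the tables and CPM of *Tgfa*, *Btc* and *Erbb3* in untreated (U, blue) and treated (T, red) libraries, with axes from 0. *Tgfa* and *Erbb3* are highest in U1, where the markers sum to 1420 CPM, and *Btc* in U2, where they sum to 747.6 CPM.

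*Hbegf* transcripts made up most of the ligand RNA. Compared per length, as CPM per kilobase of the longest transcript, *Hbegf* stood at 26.9 ± 1.85 in untreated and 34.1 ± 3.95 in treated tumours (SD, n = 3), *Ereg* at 3.54 ± 2.01 and 6.40 ± 1.67, and *Areg* at 0.876 ± 0.359 and 3.79 ± 1.95. *Nrg1*, *Btc* and *Tgfa* were each below 1 in every library. The level summed over the 6 ligands was 29.2, 37.0 and 30.7 in untreated 1, 2 and 3 against 47.9, 43.3 and 43.8 in treated 1, 2 and 3. Each treated sum was above each untreated one, and *Hbegf* carries most of each sum. The share of *Hbegf* was 87.2%, 78.5% and 85.6% in untreated and 78.2%, 81.1% and 68.0% in treated tumours, so that the groups overlapped. *Areg* held 1.70%, 2.48% and 3.94% in untreated and 5.53%, 6.21% and 13.8% in treated tumours. No test was made of these sums and shares, since the genes were chosen with results known.

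**Figure D3:**
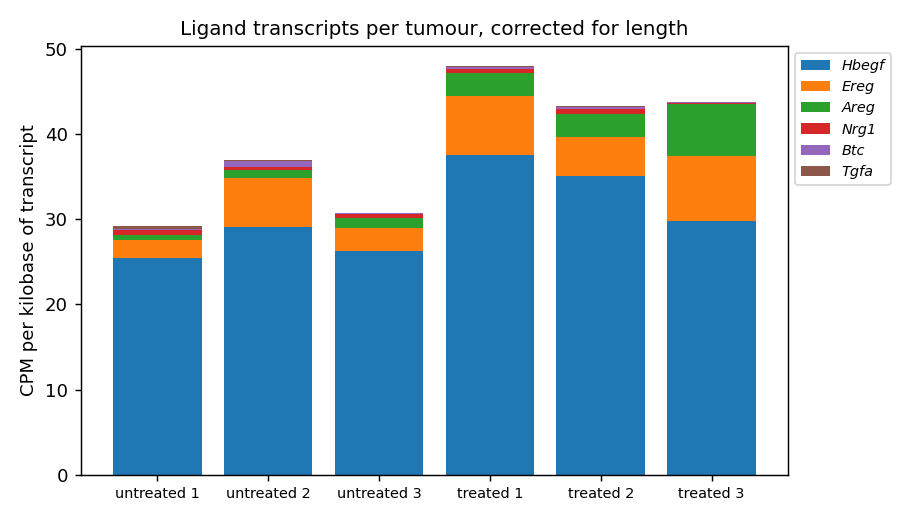
Stacked levels of the 6 ligand genes in each library, as CPM per kilobase of the longest transcript, from 0. The stack reaches 29.2 to 37.0 in untreated and 43.3 to 47.9 in treated tumours, and *Hbegf* is the largest part of each.

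*Egfr* codes for the EGF receptor (chromosome 11, 16752203 to 16918158) and was the receptor gene with the most counts, 952 to 1845 in a library. It had 247.0, 294.3 and 226.3 CPM in untreated 1, 2 and 3 against 172.7, 212.2 and 118.4 CPM in treated 1, 2 and 3. Each treated tumour was below each untreated one, and the treated tumour with the lowest *Egfr*, treated 3, was the one with the highest *Areg*. Treated 3 also had the highest skeletal muscle markers, with a sum of 423.1 CPM against 10.3 to 102.4 CPM in the other libraries, and their part in these values was not tested. The mean was 167.8 ± 47.1 CPM in treated and 255.9 ± 34.9 CPM in untreated tumours (SD, n = 3). The log2 fold change was -0.61 ± 0.26 (SE), or 0.656 times the untreated level. Its adjusted p was 0.592 by edgeR and its unadjusted p 0.0546, and 4.85% of all tested genes were lower at an unadjusted p under 0.05. Leaving out each library in turn gave -0.81 to -0.41, the value nearest 0 being the one without treated 3.

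The 250 bases before the start of *Egfr* (RefSeq, GRCm38.p6, chr11:16751953-16752202, plus strand, 5′ to 3′) are shown beside those of *Areg* because the ligand and its receptor differed between the groups in opposite directions. No motif of the search is in them, so there are no capitals.

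Egfr: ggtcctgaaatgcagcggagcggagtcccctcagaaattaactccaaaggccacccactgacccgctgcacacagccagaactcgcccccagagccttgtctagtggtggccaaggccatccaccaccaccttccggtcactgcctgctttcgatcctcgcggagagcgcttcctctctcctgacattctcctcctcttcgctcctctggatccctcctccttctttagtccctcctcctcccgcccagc

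This window has a GC content of 60.8% and that of *Areg* 57.2%, against a median of 52.4% over all windows. The missing letters say nothing about the factors that act on the gene. Of the 9 members, 5 had a promoter in the RefSeq table, *Areg*, *Tgfa*, *Btc*, *Egfr* and *Erbb2*.

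*Erbb2* codes for the receptor that pairs with the other members (chromosome 11, 98412470 to 98437716). It had 74.3, 18.7 and 64.9 CPM in untreated 1, 2 and 3 against 64.2, 68.1 and 64.0 CPM in treated tumours. The 3 treated tumours lay within 64.0 to 68.1 CPM, close to untreated 3 and below untreated 1, and untreated 2 was far below the rest. The log2 fold change was 0.31 ± 0.46 (SE) with all libraries, with an adjusted p of 0.811 by edgeR, and -0.09 ± 0.12 without untreated 2, with an adjusted p of 0.696 (0.635 to 0.966 over the alternatives). The direction with all libraries therefore rests on untreated 2. The longest *Erbb2* transcript has a GC content of 57.3%, in the highest bin, and the gene's log2 level in untreated 2 differed by -1.86 from the mean of untreated 1 and 3. The part of GC content was not tested here either.

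*Erbb3* codes for the receptor of neuregulins, whose kinase is weak and which signals through its partner (chromosome 10, 128567523 to 128589652). Its counts were 25, 2 and 4 in untreated 1, 2 and 3 against 5, 9 and 10 in treated tumours, or 3.78, 0.446 and 0.491 CPM against 0.894, 1.22 and 1.24 CPM. Untreated 1 was the highest, and the treated tumours lay above the other 2 untreated ones. The 95% Poisson interval was 0.134 to 1.26 CPM in untreated 3 and 0.596 to 2.29 CPM in treated 3. These intervals overlapped, which is not a test of the difference. Untreated 1 also had the highest keratinocyte markers, and untreated 2, with 747.6 CPM of them, had 2 counts of *Erbb3*. Markers of Schwann cells, which are known to depend on ErbB3, summed to 25.2 to 30.7 CPM in untreated and 23.2 to 33.5 CPM in treated tumours, with *Sox10* at no more than 0.54 CPM and *Cdh19* at 0 in all libraries. The part of either cell type in the *Erbb3* counts was not tested.

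**Figure D4:**
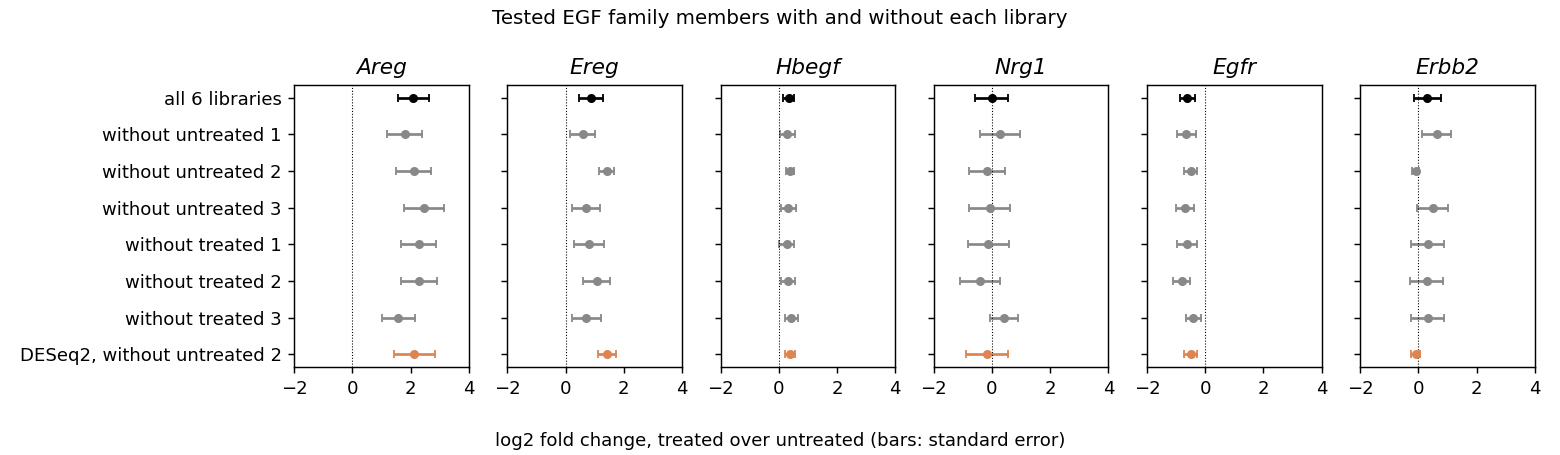
Log2 fold change of treated over untreated tumours with its standard error for the 6 tested members, with all 6 libraries (black), without each library (grey) and by DESeq2 without untreated 2 (orange). *Ereg* is 0.87 with all libraries and 1.41 without untreated 2, *Erbb2* is 0.31 and -0.09, and *Areg* lies at 1.58 to 2.45 without each library.

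By CPM per kilobase over the 6 libraries, the order from highest to lowest was *Hbegf*, *Egfr*, *Erbb2*, *Ereg*, *Areg*, *Nrg1*, *Btc*, *Erbb3* and *Tgfa*. The ranges over the 6 libraries overlapped between each pair of neighbours in this order. Within a library *Hbegf* was above *Egfr* and *Ereg* above *Areg* in 6 of 6 libraries, and *Btc* was above *Erbb3* in 3 of 6. Where all annotated exons were counted as the length, a choice made after seeing the data, *Egfr* came before *Hbegf* and *Erbb3* before *Btc* in the mean over the 6 libraries. By that length *Egfr* was above *Hbegf* in the 3 untreated libraries and below it in the 3 treated ones. The other 6 family genes were scarce. *Egf*, the founding ligand, had 1.10 to 1.34 CPM in untreated and 0.536 to 0.995 CPM in treated tumours, on 3 to 9 counts. *Nrg4* had 1.34 to 2.12 against 1.07 to 1.62 CPM and a log2 fold change of -0.49 ± 0.42 (SE). *Nrg2* had 1 count in treated 2 and 1 in treated 3, *Nrg3* 2 counts in treated 2, and *Erbb4* was at 0 in all libraries, which allows up to 0.368 to 0.669 CPM depending on the library, again taking 3 counts as the limit.

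The other genes of the pathway are described by their counts in lists drawn up with earlier results of these data known. Over all 12517 tested genes the median log2 fold change was 0.00, and for the 6 tested members it was 0.33, or 0.15 without untreated 2. Of all tested genes 49.9% had higher and 50.1% lower estimates in treated tumours. With edgeR 0 genes of these lists passed after adjustment over all genes.

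Sheddases and their partners free the ligands from the membrane. Of 12 genes 11 were tested, 9 higher and 2 lower, with a median of 0.20, or 0.10 without untreated 2, when 6 were higher and 5 lower. *Adam17*, the main sheddase of *Areg* and *Hbegf* products, had 110.9, 114.5 and 114.0 CPM in untreated and 102.6, 104.9 and 104.3 CPM in treated tumours, and the groups did not overlap. Its log2 fold change was -0.12 ± 0.17 (SE). *Adam17* was the only gene of the 11 without overlap, against 10.6% higher and 10.2% lower over all tested genes. *Adam12*, a sheddase of connective tissue, had 7.41, 5.58 and 21.8 CPM in untreated and 21.3, 50.9 and 60.8 CPM in treated tumours, a log2 fold change of 1.91 ± 0.60. *Adam19*, which can cut neuregulins, had 10.3, 5.80 and 18.3 against 14.8, 29.8 and 40.8 CPM, a log2 fold change of 1.30 ± 0.50. In both genes untreated 3 was above treated 1. The 2 were the list's only members at an unadjusted p under 0.05 by edgeR, against 3.32% higher and 4.85% lower of all tested genes. *Adam9* had a log2 fold change of -0.01 ± 0.20.

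Adaptors and the kinase cascade carry the signal from the receptors. All 25 genes were tested, 17 higher and 8 lower, with a median of 0.16, or 0.02 without untreated 2, when 13 were higher and 12 lower. None had an unadjusted p under 0.05. *Hras*, a RAS protein, had 32.1, 33.0 and 29.6 CPM in untreated and 41.1, 38.0 and 43.8 CPM in treated tumours, a log2 fold change of 0.38 ± 0.18 (SE), and *Sos1*, which loads RAS with GTP, had 0.32 ± 0.21. *Shc1*, an adaptor that binds the activated receptors, had 250.2, 319.3 and 250.4 CPM in untreated and 184.1, 241.6 and 202.5 CPM in treated tumours, a log2 fold change of -0.38 ± 0.21. *Gab1*, a docking protein, had -0.24 ± 0.23. Treated and untreated values did not overlap in 8 of the 25, 6 higher and 2 lower, *Hras*, *Sos1* and *Shc1* among them, against 10.6% higher and 10.2% lower over all tested genes.

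Inhibitors and turnover genes limit the receptors' signal. Of 22 genes 21 were tested, 12 higher and 9 lower, with a median of 0.03, or -0.04 without untreated 2, when 8 were higher and 13 lower. *Spry1*, a Sprouty inhibitor of receptor signalling, had 20.7, 9.82 and 9.81 CPM in untreated and 6.61, 3.40 and 5.97 CPM in treated tumours, a log2 fold change of -1.34 ± 0.42 (SE). DESeq2 without untreated 2 called *Spry1* lower (adjusted p 0.0388), in a comparison where it called 1.39% of the genes lower. With all libraries the adjusted p of *Spry1* by DESeq2 was 0.196 (0.0388 to 0.966 over the alternatives). *Spry4*, of the same family, lay the other way, with 2.27, 0 and 4.54 CPM in untreated and 8.05, 5.30 and 6.84 CPM in treated tumours. Its log2 fold change was 1.48 ± 0.83, and 0.95 when untreated 2 was left out. *Lrig2* had 75.9, 73.6 and 63.2 against 53.6, 54.7 and 47.4 CPM, a log2 fold change of -0.45 ± 0.19. *Ptpn12*, a phosphatase, had 0.27 ± 0.21. Without overlap of the groups were 3 of the 21 genes, *Spry4* higher and *Spry1* and *Lrig2* lower, against 10.6% higher and 10.2% lower over all tested genes.

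Genes that ERK is known to switch on were mostly higher, as far as estimates go. All 17 were tested, 14 higher and 3 lower, with a median of 1.15, or 0.95 without untreated 2, and 10 were higher at an unadjusted p under 0.05, against 3.32% of all tested genes. For 9 of the 17, all treated tumours were above all untreated ones, against 10.6% of all tested genes. *Spry2* and *Spry4* are in this list and in that of the inhibitors, and *Spry4* is among the 9. Many of these genes answer to other signals as well. *Dusp4*, an ERK phosphatase, had a log2 fold change of 2.64 ± 0.37 (SE) and *Fos*, a subunit of AP-1, 2.70 ± 0.54. *Phlda1*, picked with its values in view, had 11.2, 5.80 and 18.6 CPM in untreated and 59.7, 27.9 and 51.6 CPM in treated tumours. DESeq2 called *Dusp4*, *Fos* and *Phlda1* higher, against 0.156% of its genes, and without untreated 2, where it called 1.01% higher, also *Ier3* and *Myc*, also picked that way. *Etv5*, a transcription factor, lay lower, with 28.3, 25.4 and 26.3 CPM in untreated and 20.4, 21.2 and 17.5 CPM in treated tumours, a log2 fold change of -0.44 ± 0.19. *Dusp6*, another ERK phosphatase, had -0.55 ± 0.42 with all libraries and 0.03 without untreated 2, where it had 218.5 CPM.

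**Figure D5:**
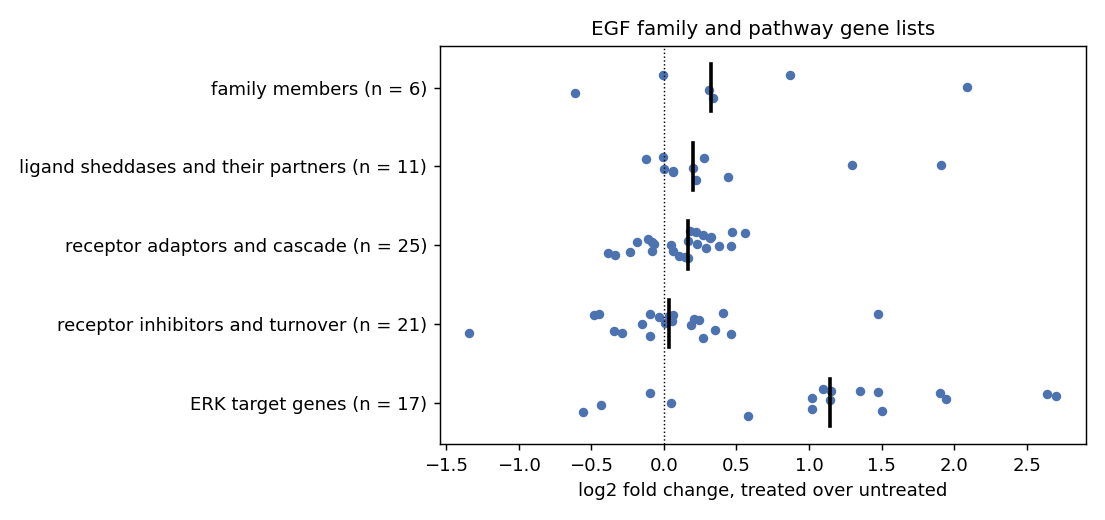
Log2 fold change of treated over untreated tumours for the tested genes of the family and of 4 pathway lists, 1 point a gene, with the list median as a black bar and the median of all tested genes as a dotted line. The medians are 0.33, 0.20, 0.16, 0.03 and 1.15 from top to bottom. *Spry2* and *Spry4* are in both the inhibitor list and the ERK target list.

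The patterns most like those of *Areg* and *Egfr* were sought among protein-coding genes with a mean of at least 5 CPM, by Pearson's r of log2 CPM over the 6 libraries. The 5 genes nearest to *Areg* among 10118 were *Ppp1r7*, *Ftl1*, *Dus1l*, *Ddx1* and *Crlf3*, with r of 0.98 to 0.99. *Ftl1*, the ferritin light chain, had 1378, 1554 and 1779 CPM in untreated and 2012, 1940 and 2461 CPM in treated tumours. The 5 nearest to *Egfr* were *Slitrk6*, *Trps1*, *Atraid*, *Cdk14* and *Tcp11l2*, each with r of 0.99. *Slitrk6* had 32.8, 73.6 and 29.8 CPM in untreated and 14.5, 23.1 and 3.85 CPM in treated tumours. *Ftl1* and *Slitrk6* were picked for these values after they were seen. There were 6 points for each r, and the points share the libraries' depth and composition.

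Other cells of the tumour can make these ligands too, and their markers differed between the libraries. Macrophage markers (9 genes) summed to 902.4 to 1544 CPM in untreated and 424.2 to 759.8 CPM in treated tumours. Neutrophil markers (7 in the tables) summed to 25.0 to 105.4 against 92.0 to 134.9 CPM, and mast cell and basophil markers (8) to 28.0 to 67.4 against 13.3 to 19.5 CPM. Endothelial markers (8) summed to 83.7 to 161.9 against 125.3 to 198.9 CPM, and skeletal muscle markers (8) to 27.7 to 102.4 against 10.3 to 423.1 CPM. Markers of regulatory and type 2 lymphocytes (8), cells known to make *Areg*, summed to 47.2 to 103.5 against 41.4 to 193.3 CPM, with *Foxp3* at 0 to 1.86 CPM and *Cd3e* at 0 in all libraries. Most of that sum was *Il1rl1*, at 29.1 to 185.2 CPM. Treated and untreated sums did not overlap for macrophage and for mast cell markers. Of the 9 macrophage markers, 7 had lower and 2 higher estimates in treated tumours, against 50.1% lower and 49.9% higher of all tested genes. *Cd14* had 21.0, 63.2 and 60.8 CPM in untreated and 49.7, 55.6 and 78.2 CPM in treated tumours. All 5 tested mast cell and basophil markers had lower estimates. The part of these cells in the ligand and receptor levels was not tested.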

How the data were processed

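RNA-seq counts of 6 mouse tumours were used, 3 untreated and 3 treated, grouped by title. Per the labels, RNA was extracted with Trizol and a strand-specific kit was used. TopHat and the build mm10 are listed in the submitters' processing notes. How reads were counted, with which strand setting and annotation, is not given in the sources used here, so overlapping and antisense genes can share counts. The authors deposited raw counts by gene symbol, with a table for each sample, and these entered the fits unscaled.

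With edgeR 4.0.16 (R 4.3.3), filterByExpr at a minimum count of 10 kept 12517 genes. Counts were TMM-scaled and compared with the quasi-likelihood test, 2-sided, with Benjamini-Hochberg adjustment over all tested genes. The SE is the log2 fold change over the root of F. With 3 against 3 libraries, 0.1 is the smallest p of an exact permutation test, which was therefore left out. At these depths low-count genes carry wide counting error. DESeq2 1.42.0, limma-voom (limma 3.58.1), other scalings and filters, left-out libraries and a replicate block were alternatives. The steps were tested on simulated counts. Every pair of libraries differed beyond sampling noise (chi-square per gene of 5.64 or more, among genes with 20 or more counts).

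Lengths, GC content and positions are from GENCODE M21 (mm10), by the longest transcript. Members and gene lists were chosen with earlier results of these data known. All 9 members and 6 other family genes are named whatever their values, and from each other pathway list up to 2 genes per direction with the smallest p. The 5 genes most like *Areg* and *Egfr* by Pearson's r are named too. Genes named otherwise are markers, neighbours on the chromosome, or said to be picked with their values in view.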

Additional observations from a re-analysis of the deposited data

How the results depend on the processing

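The count of genes past an adjusted p of 0.05 was 0 by edgeR with TMM, and also with DESeq2 size factors, the upper quartile, the filter dropped or set at a mean of 5 CPM, the replicate block, and by limma-voom. It was 57 by DESeq2 and 273 by DESeq2 without untreated 2, and 0 to 4 by edgeR with each library left out, the 4 being without untreated 3. The cause was not tested. The log2 fold changes of *Areg*, *Ereg*, *Hbegf* and *Egfr* kept their sign under each alternative that could test them. *Erbb2* turned to -0.0934 by edgeR and -0.0925 by DESeq2 without untreated 2 and was 0.63 at most with a library left out. *Nrg1* was -0.42 to 0.41 with each library left out. A filter at a mean of 5 CPM removes *Areg* and *Nrg1*. The labels do not say that replicate numbers pair the samples. The same-numbered deviations from the group means correlated at -0.18, -0.11 and 0.11, and not every sample correlated best with its own number. With 3 samples in a group such values cannot show or exclude a pairing. With the replicate block the log2 fold change was 2.09 for *Areg*, 0.98 for *Ereg* and -0.64 for *Egfr*, and 0 genes were called. The share of *Hbegf* in the ligand level, averaged over the 6 libraries, was 79.8% per longest transcript and 71.4% over all exons, a length chosen after seeing the data. Leaving out 1 library leaves a group of 2, whose spread is taken with that of the other group. For *Areg*, *Tgfa*, *Btc*, *Nrg1* and *Erbb3*, low counts limit the precision.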
